A study of Mus musculus with 4 samples.

Results

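The immunoglobulin genes of mouse were followed across 4 Affymetrix arrays of trachea and oviduct. The set holds every gene of the platform annotation whose symbol names a variable, diversity, joining or constant segment of the heavy, kappa or lambda locus by number, together with Jchain, Ighm, Igha and Igkc where a probe set names that gene alone. The rule uses symbols and no measured value. It gave 210 of the 30701 genes named on the array. They are 117 heavy variable segments, 4 heavy diversity segments, the IgM constant gene Ighm, 86 kappa variable segments, the kappa joining segment Igkj3 and Jchain. No lambda gene had a probe set of its own (0 members). Igha and Igkc, the constant genes of IgA and of the kappa light chain, were listed only on probe sets shared with other genes. No member had more than 1 probe set that names it alone, but some, such as Ighm, were also listed on shared probe sets.

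An antibody is built from paired heavy and light chains, and the variable end of each chain is assembled in developing B cells by joining variable, diversity and joining segments of the DNA, so that a rearranged B cell transcribes few of its many segments. Mature B cells carry IgM on their surface, and plasma cells, into which they differentiate, fill much of their messenger RNA with immunoglobulin transcripts. In the mucosa of airways and genital tract, plasma cells make polymeric IgA and IgM, whose units are held together by the joining chain (Jchain) and carried across the epithelium by the receptor encoded by Pigr.

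Jchain is the member not encoded within an immunoglobulin locus, and the only one with an entry in the RefSeq promoter table used here. Its promoter is shown because the octamer, the motif through which immunoglobulin variable promoters are known to be driven in B cells, can be looked for in it. The stretch below runs from 250 bases before to 50 bases after the annotated start (RefSeq, GRCm38.p6, chr5:88527848-88528147, minus strand), 5′ to 3′, with capitals for the 50 bases from the start onward.
Jchain promoter: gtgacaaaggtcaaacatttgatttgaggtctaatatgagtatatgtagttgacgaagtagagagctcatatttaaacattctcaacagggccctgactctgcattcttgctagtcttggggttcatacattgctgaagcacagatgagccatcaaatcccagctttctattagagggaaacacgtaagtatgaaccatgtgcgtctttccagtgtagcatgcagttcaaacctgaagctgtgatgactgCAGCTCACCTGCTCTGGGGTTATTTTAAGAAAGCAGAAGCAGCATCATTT
The octamer ATGCAAAT was not found in it on either strand. Of 32851 promoters of the same length, 570 (1.74%) hold the octamer on at least 1 strand. The Jchain stretch had a GC content of 42.3%, against a median of 52.7% over all promoters. A motif match is only a description of letters.

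The arrays came from Gemc1-null trachea and WT trachea of male mice aged 39 days, and from Gemc1-null oviduct and WT oviduct of female mice aged 65 days. All were of a mixed C57BL/6 and 129 background, and total RNA was taken from fresh whole tissue without culture or treatment. Gemc1, now named Gmnc, encodes a geminin relative known to start the programme of multiciliated cells. Each group had 1 array, and the labels do not say whether it holds 1 animal or several, so differences within a tissue are given by size with no test and no error.

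The targeted gene was read first. Gmnc had a log2 signal of 4.63 on the array labelled Gemc1-null trachea and 5.90 on WT trachea, but 8.86 on the array labelled Gemc1-null oviduct and 6.11 on WT oviduct. Both trachea values lie below their array's negative-control median, so they say nothing for or against the label, and the oviduct values go against it. Which stretch of the gene the null allele lacks is not stated in the labels, and every direction below therefore rests on the labels. The motile cilia list, chosen as a check of the tissue, had all 8 measured genes at least 2-fold lower on both arrays labelled null. All values are log2 RMA signals, and a difference of 1 is a 2-fold difference. Array medians lay between 5.86 and 5.98, and the medians of 5222 negative-control probe sets, taken as background, between 5.74 and 5.98. Where the dimmer array lay below its background, a fold was taken against that background and is written as "at least". Counts past 2-fold use the levels as measured unless a floor is named. The trachea arrays also differed in genes of other tissues. Skeletal muscle genes were at least 2-fold higher on the array labelled Gemc1-null (5 of 5), with Myh1, a fast muscle myosin, at 12.42 against 5.52 on WT trachea. Airway secretory genes (5 of 5), fat genes (5 of 5) and epithelial genes (6 of 7) were at least 2-fold lower there. In oviduct, 5 of 5 ovary genes were at least 2-fold lower on the array labelled Gemc1-null, with the steroid enzyme Cyp11a1 at 5.71 against 12.04 on WT oviduct. The part of these tissue differences in the immunoglobulin values was not tested.

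Immunoglobulin genes were lower almost throughout on the array labelled Gemc1-null trachea. Of the 210 members, 170 (81.0%) were at least 2-fold lower than on WT trachea and 0 were at least 2-fold higher. Over all named genes the shares were 5.26% lower and 4.39% higher. The median difference was -2.08 over the members, with quartiles of -2.93 and -1.23, and 0.06 over all named genes. In all, 205 members lay below 0, and the 5 above it were Ighd6-2, Ighv16-1, Ighv5-8, Igkv18-36 and Igkv5-37. On WT trachea 173 members (82.4%) stood above background, against 65 (31.0%) on the array labelled Gemc1-null, so 116 of the 170 differences end at a level that cannot be told from background. With background as the floor, 134 members were still at least 2-fold lower. A level filter at the array median on at least 1 of both arrays passed 176 of the 210. In whole tissue, fewer cells of a type and less RNA per cell cannot be told apart.

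**Figure D1:**
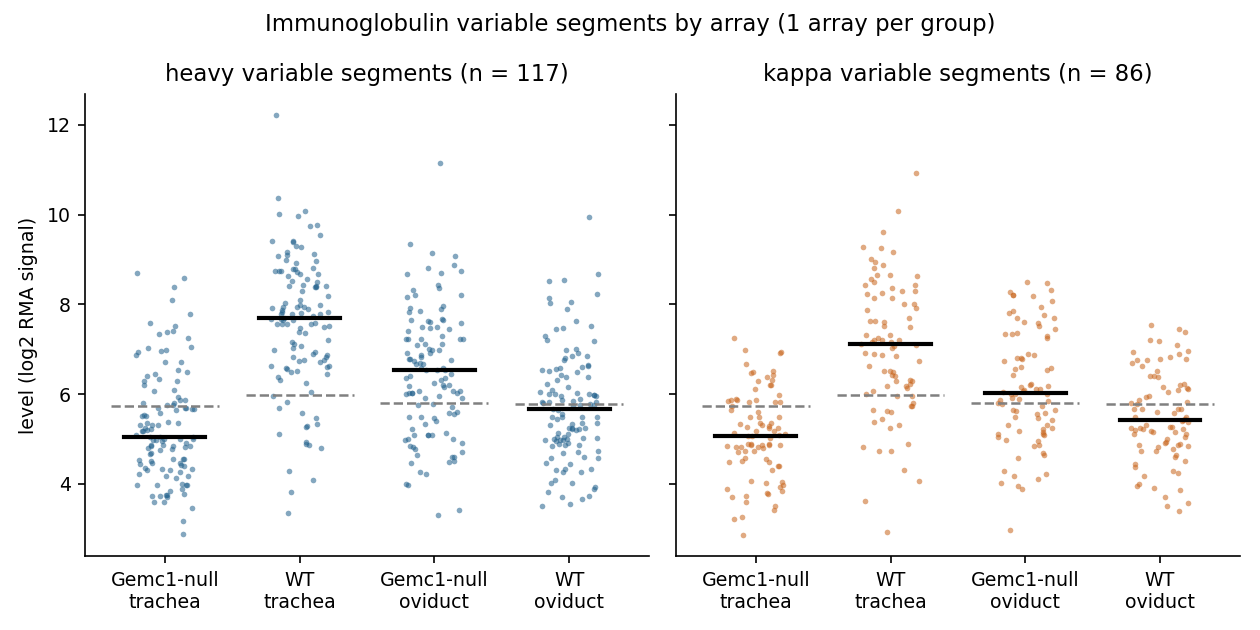
Log2 RMA signal of 117 heavy and 86 kappa variable segments on each of the 4 arrays, 1 point per segment, with the median as a black bar and the array's negative-control median as a dashed line. Heavy segments have medians of 5.05 on the array labelled Gemc1-null trachea, 7.70 on WT trachea, 6.53 on the array labelled Gemc1-null oviduct and 5.67 on WT oviduct, and kappa segments run in the same order at 5.08, 7.11, 6.03 and 5.42.

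Ighm, which encodes the constant region of IgM, showed a wide trachea difference with both arrays above background. It stood at 6.45 on the array labelled Gemc1-null trachea and 10.93 on WT trachea, 22.3-fold lower. In oviduct it had 6.64 on the array labelled Gemc1-null and 6.79 on WT, a difference of -0.15. By its own probe set the IgM gene thus differed between the trachea arrays and hardly between the oviduct arrays. Shared probe sets listing Ighm with Ighg3, Ighv2-6, Ighv2-7 or Igkv8-27 differed by -1.04, -1.07, 0.08 and -2.38 in trachea. In oviduct the same sets differed by 0.13, 0.59, 0.28 and 0.48. Which of the listed genes gave their signal cannot be read from them.

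Other constant genes, outside the rule, differed less in trachea. Ighg2b, of IgG2b, had 5.77 on the array labelled Gemc1-null trachea and 7.16 on WT trachea, and 6.13 and 6.01 on the arrays labelled Gemc1-null oviduct and WT oviduct. Ighg1, of IgG1, had 5.57 and 6.10 in trachea and 6.06 and 5.62 in oviduct, the array labelled Gemc1-null first in each pair. Ighe, of IgE, lay below background on all 4 arrays. IgA itself could be read only through a heavy chain probe set that lists 8 genes, among them the joining segments and the constant genes of IgA, IgD and IgG2c. That probe set stood at 5.74 on the array labelled Gemc1-null trachea and 9.06 on WT trachea. It had 7.39 on the array labelled Gemc1-null oviduct and 6.32 on WT oviduct, a difference of 1.07 where Ighm had -0.15. Which of its 8 genes gave the signal cannot be read from it.

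Heavy variable segments, which encode most of the antigen-binding end of the heavy chain, were at least 2-fold lower in trachea for 100 of 117, with a median difference of -2.26. Ighv1-82 had the widest difference, at 3.98 on the array labelled Gemc1-null trachea and 9.42 on WT trachea, at least 12.8-fold lower. Ighv3-6 had 3.97 against 8.81 on WT, at least 8.35-fold lower. Ighv1-64 had 4.56 against 8.79, at least 8.28-fold lower. For all 3 the array labelled Gemc1-null lay below background, so these folds are floors.

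Segments that stayed above background on the array labelled Gemc1-null trachea give measured folds. Ighv1-2, a pseudogene in RefSeq, stood at 8.70 against 12.22 on WT trachea, 11.5-fold lower. Ighv1-5 had 7.38 against 10.36, 7.89-fold lower, and Ighv1-56 had 8.10 against 10.01, 3.75-fold lower. Smaller differences were seen for Ighv2-5, at 8.39 against 9.96, and for Ighv2-3, at 8.59 against 9.31. At the other end, Ighv13-1 lay below background on all 4 arrays, between 2.89 and 3.50, and carries no fold.

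The 4 diversity segments, the short pieces joined between variable and joining segments of the heavy chain, differed less. In trachea 0 of 4 were at least 2-fold lower and 3 lay below 0, with a median difference of -0.65. RefSeq classes all 4 as pseudogenes, so segment type and pseudogene status cannot be told apart here. Ighd6-2 had 6.73 on the array labelled Gemc1-null trachea and 6.43 on WT trachea. Ighd5-8 had 7.31 and 8.09 on the same arrays. Ighd5-7 and Ighd6-1 had identical values on all 4 arrays, as did Ighv1-62-2 and Ighv1-71, so the members of a pair, counted apart in every count here, are not independent readings.

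Kappa variable segments, their counterparts in the kappa light chain, were at least 2-fold lower in trachea for 67 of 86, with a median difference of -1.95. Igkv15-103 stood at 6.98 on the array labelled Gemc1-null trachea and 10.92 on WT trachea, 15.3-fold lower. Igkv2-137 had 6.53 against 10.08, 11.8-fold lower. Igkv4-54 had 5.87 against 9.25, 10.4-fold lower, and Igkv4-71 had 6.47 against 9.62, 8.85-fold lower. These 4 stayed above background on both arrays.

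Other kappa segments had wide differences that end below background on the array labelled Gemc1-null. Igkv1-135 had 4.80 against 9.00 on WT trachea, at least 9.58-fold lower. Igkv6-25 had 3.51 against 7.62, at least 3.68-fold lower, and Igkv1-133 had 4.50 against 8.51, at least 6.78-fold lower. Igkj3, a kappa joining segment, had 5.12 against 8.68, at least 7.66-fold lower. Igkv14-100 had 4.31 and 5.80, both below background, and so no fold.

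Jchain, which links units of IgA and of IgM, was itself dim. It stood at 4.73 on the array labelled Gemc1-null trachea and 6.49 on WT trachea. With the array labelled Gemc1-null below background, it was at least 1.68-fold lower. On WT trachea it lay just above the background median of 5.98.

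**Figure D2:**
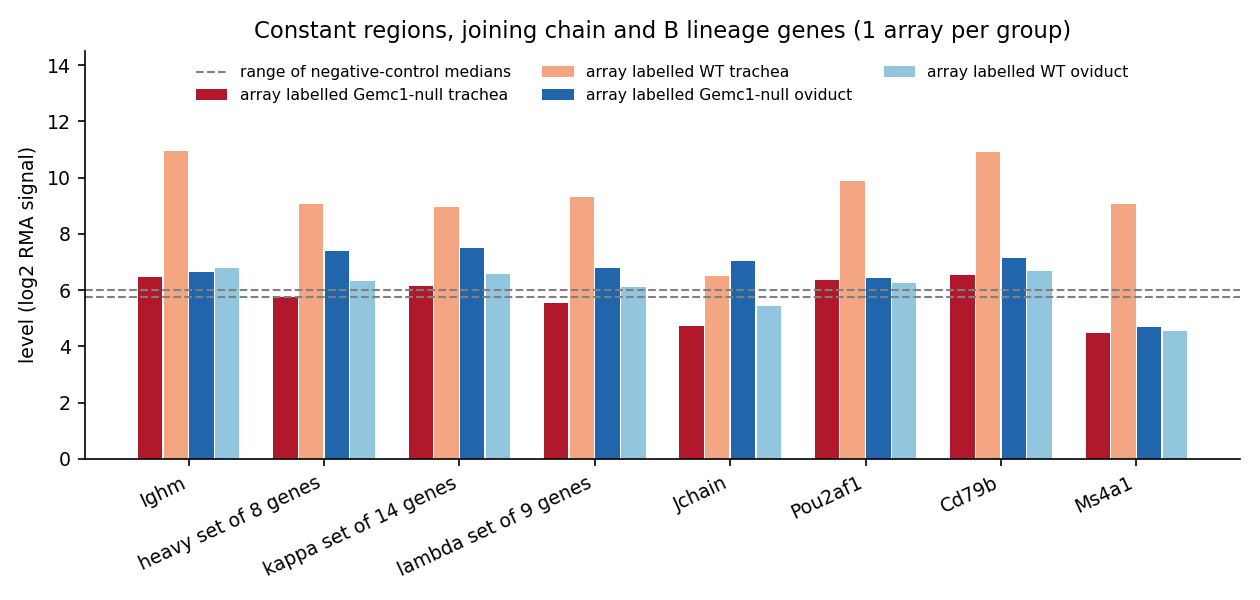
Log2 RMA signal of Ighm, 3 probe sets shared by several immunoglobulin genes, Jchain, the plasma cell list gene Pou2af1 and the B cell genes Cd79b and Ms4a1, with 1 bar per array and dashed lines at the lowest and highest negative-control medians. In trachea every bar labelled Gemc1-null is below its WT bar, and in oviduct the Jchain bar stands at 7.02 on the array labelled Gemc1-null and 5.43 on WT, while Ighm stands at 6.64 and 6.79.

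In oviduct the same genes leaned the other way and by less. Of the 210 members, 54 (25.7%) were at least 2-fold higher on the array labelled Gemc1-null oviduct than on WT oviduct, and 0 were at least 2-fold lower. Over all named genes the shares were 0.55% higher and 1.84% lower. The median difference was 0.65 over the members, with quartiles of 0.30 and 1.01, against 0.05 over all named genes, and 194 members lay above 0. Above background were 137 members (65.2%) on the array labelled Gemc1-null oviduct and 93 (44.3%) on WT oviduct. For 25 of the 54 the WT array lay below background, and with background as the floor 35 were at least 2-fold higher. The array median filter passed 129 of the 210. The count moved with the threshold: 113 members were at least 1.5-fold higher and 8 at least 3-fold higher.

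The oviduct count was made up of 31 heavy variable segments, 22 kappa variable segments and Jchain. Heavy variable segments had a median difference of 0.66. Ighv5-16 stood at 8.69 on the array labelled Gemc1-null oviduct and 5.48 on WT oviduct, at least 7.55-fold higher. Ighv3-6 had 7.24 against 4.27, at least 2.76-fold higher. Ighv7-3, a pseudogene in RefSeq, had 8.22 against 5.97, 4.74-fold higher with both arrays above background.

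The 5 heavy segments named for a high mean signal had differences above 0 in oviduct, most of them within 2-fold. Ighv1-2 had 11.14 on the array labelled Gemc1-null oviduct and 9.95 on WT oviduct, 2.29-fold higher. Ighv1-5 had 9.15 and 8.24, Ighv1-56 had 9.34 and 8.68, and Ighv2-5 had 8.82 and 8.54, differences of 0.91, 0.66 and 0.28 that stayed within 2-fold. Ighv2-3 had 8.70 and 8.53, a difference of 0.17 beside an upper quartile of 0.18 over all named genes. Ighv1-82, which had the widest trachea difference, had 6.36 and 4.70, at least 1.51-fold higher.

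Kappa variable segments had a median oviduct difference of 0.63. Igkv10-95 stood at 8.50 on the array labelled Gemc1-null oviduct and 6.40 on WT oviduct, 4.28-fold higher. Igkv2-109 had 8.21 against 6.83, 2.60-fold higher, and Igkv2-137 had 8.22 against 6.88, 2.52-fold higher. Igkv5-48 had 6.00 against 3.95, and Igkv17-121 had 6.59 against 5.04, which give at least 1.17-fold and at least 1.76-fold. Igkj3 had 5.45 and 5.26, both below background. A shared probe set of Igkv10-96 and Igkv10-94 had a larger difference than any member, at 9.13 on the array labelled Gemc1-null oviduct and 5.82 on WT oviduct, a difference of 3.31.

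Jchain, with 7.02 on the array labelled Gemc1-null oviduct and 5.43 on WT oviduct, was at least 2.38-fold higher. On the array labelled Gemc1-null oviduct it also lay above the 6.49 of WT trachea. In 12 of the 210 members, with both arrays above background, the level on the array labelled Gemc1-null oviduct exceeded that on WT trachea. These were Jchain, Ighd6-2, Ighv1-13, Ighv2-1, Ighv2-9, Ighv5-16, Ighv7-3, Ighv9-4, Igkv3-1, Igkv8-34, Igkv10-95 and Igkv12-47. The excess ran from 7.97 against 7.95 for Ighv2-9 to 8.69 against 6.98 for Ighv5-16. Without regard to background, 24 of the 210 were higher on the array labelled Gemc1-null oviduct than on WT trachea, so most members were not. Tissue, genotype label, sex and age all differ between the arrays compared. The share over all named genes was not taken, so the count cannot be set against it.

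Each of the 54 members at least 2-fold higher in oviduct was among the 170 at least 2-fold lower in trachea, which is 100% of the oviduct list and 31.8% of the trachea list. The trachea list already held 81.0% of all 210 members, so most of any such list would fall in it. With background as the floor in both tissues, 34 members had this combination. The trachea and oviduct pairs share no array. Over all named genes 79 had this combination, and the 54 members were 68.4% of them. Members made up 32.0% of the 169 genes at least 2-fold higher in oviduct and 10.5% of the 1616 at least 2-fold lower in trachea. Across the 210 members the trachea and oviduct differences had a Pearson r of -0.41 and a Spearman rho of -0.44, against 0.12 and 0.08 over all named genes. The oviduct difference ran with the WT trachea level at r = 0.41 and rho = 0.48. These correlations are across genes of the same arrays, whose probes can bind near-identical segments, and are descriptions only.

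**Figure D3:**
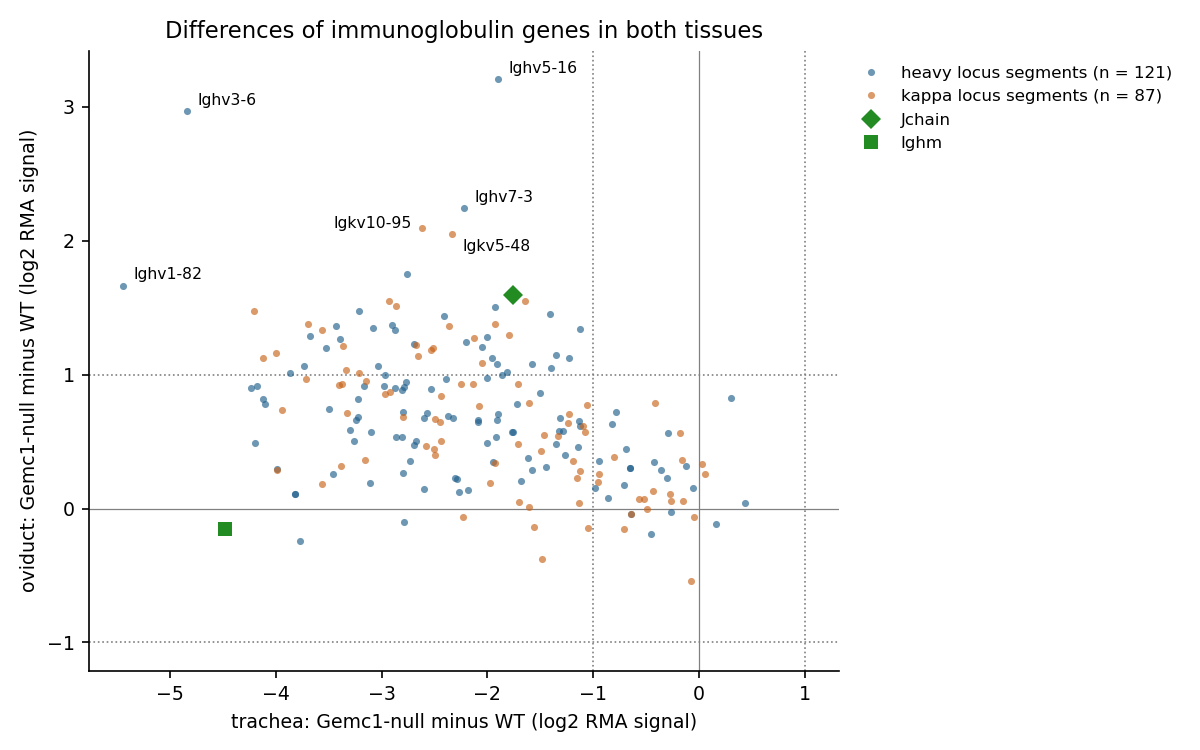
Difference between the array labelled Gemc1-null and the WT array in trachea (horizontal axis) and in oviduct (vertical axis), both in log2 RMA signal, for the 210 members, with dotted lines at 2-fold. Most points lie at upper left, with 190 of 210 below 0 in trachea and above 0 in oviduct. Ighm lies at -4.48 and -0.15.

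In WT mice the immunoglobulin genes were higher in trachea than in oviduct. Of the 210 members, 159 (75.7%) were at least 2-fold higher on WT trachea than on WT oviduct and 0 were at least 2-fold lower, beside 4.37% and 3.63% of all named genes. The median difference was 1.76. Heavy variable segments had a median difference of 1.91, with 97 of 117 at least 2-fold higher, and kappa variable segments 1.56, with 59 of 86. Ighm stood at 10.93 on WT trachea and 6.79 on WT oviduct, 17.7-fold higher. Jchain had 6.49 and 5.43 on the same arrays, at least 1.65-fold higher. Tissue, sex and age differ together here and cannot be told apart, and the WT arrays are those used in the comparisons above.

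A genotype difference shared by both tissues was looked for in limma over all 30701 genes, with tissue as a block, which leaves 1 residual degree of freedom. No member passed an adjusted p of 0.05 (0 of 210), the smallest adjusted p in limma among members was 0.808, and 0 members had an unadjusted p under 0.05. Over all genes 0% passed after adjustment and 3.46% had an unadjusted p under 0.05. Ighd6-2 had the smallest member p in limma, 0.0711 before adjustment, with differences of 0.30 in trachea and 0.83 in oviduct. Differences of opposite sign largely cancel in such a fit, and with 1 residual degree of freedom 0 calls do not show that a shared difference is absent.

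Variable segments are grouped in families by sequence, and every family with at least 3 members had a median below 0 in trachea and above 0 in oviduct. The heavy family Ighv1, with 63 members, had medians of -2.79 in trachea and 0.78 in oviduct. Ighv14, with 4 members, had -2.74 and 1.07, and Ighv5, with 10, had -1.97 and 0.81. The family Ighv2, with 8 members, differed less, at -1.34 and 0.39. Among kappa families Igkv4, with 25 members, had -2.45 and 0.77, Igkv17, with 3, had -2.67 and 1.22, and Igkv8, with 8, had -1.13 and 0.32. Segments of a family share sequence and can share probe signal, so they are not independent readings.

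**Figure D4:**
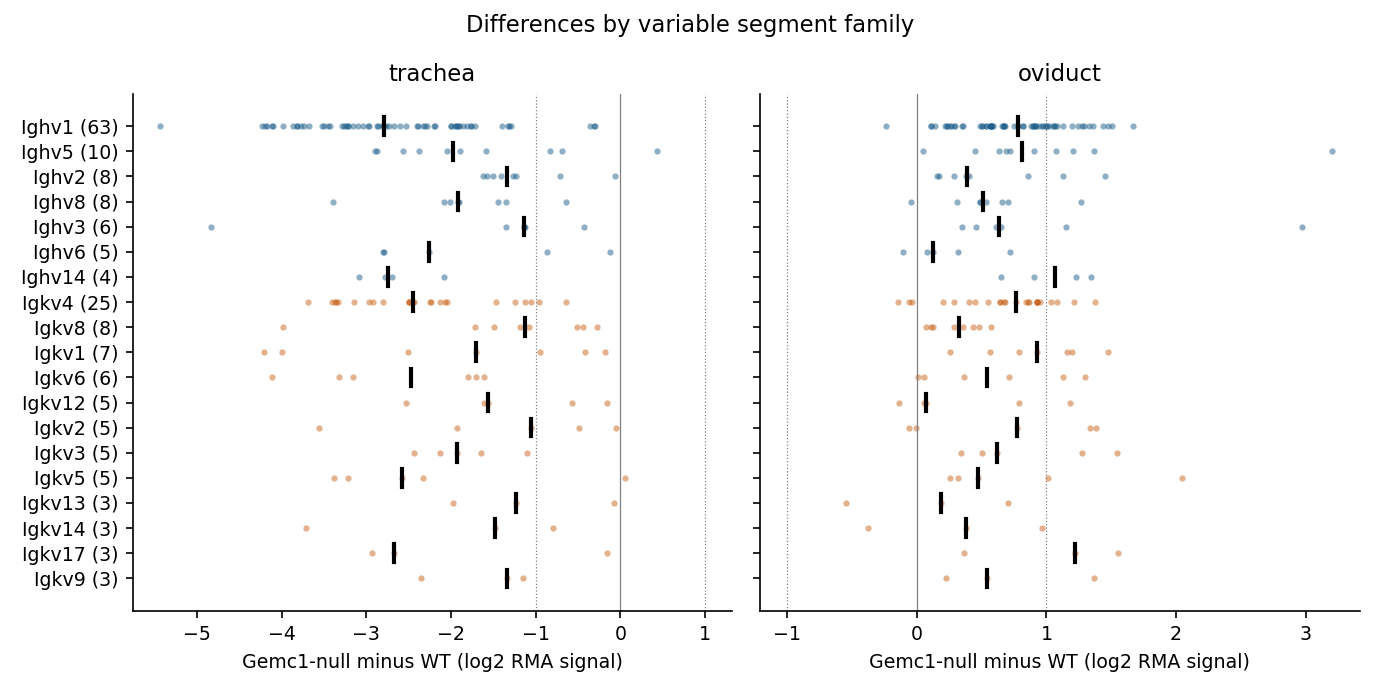
Differences between the array labelled Gemc1-null and the WT array, in log2 RMA signal, in trachea (left) and oviduct (right), for variable segment families with at least 3 members, with 1 point per segment, a black bar at the family median and dotted lines at 2-fold. Medians run from -2.79 in Ighv1 to -1.06 in Igkv2 in trachea and from 0.07 in Igkv12 to 1.22 in Igkv17 in oviduct.

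Segments classed in RefSeq as pseudogenes, which cannot encode a chain, differed less by median than functional ones. In trachea 162 of 190 functional variable segments were at least 2-fold lower, with a median of -2.22, and 5 of 13 pseudogenes, with a median of -0.31. In oviduct 51 of 190 functional segments were at least 2-fold higher, with a median of 0.67, and 2 of 13 pseudogenes, with a median of 0.26. The pseudogenes Ighv1-2 and Ighv7-3, described above, are the exceptions that were called in both tissues. Ordered by their place on the chromosome, the 39 heavy segments farthest from the constant region were all at least 2-fold lower in trachea (39 of 39, median -2.77), against 32 of 39 in the middle and 29 of 39 nearest to it (median -1.57). In oviduct the farthest 39 held 7 that were at least 2-fold higher, against 11 in the middle and 13 nearest, but the medians were close, at 0.66, 0.75 and 0.65. Kappa segments had no such order in trachea, with 21 of 28 farthest, 26 of 29 in the middle and 20 of 29 nearest. In oviduct the kappa counts ran the other way, with 10 farthest, 6 in the middle and 6 nearest. Their medians were 0.78, 0.77 and 0.36. The farthest heavy segments held 0 pseudogenes, against 3 in the middle and 3 nearest. For kappa these were 4, 2 and 1. Place, family and pseudogene status were not separated in these counts.

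Probe sets shared by several genes reached what single-gene probe sets could not. There were 25 such sets with an immunoglobulin gene, holding 52 symbols of the rule found nowhere else. In trachea 22 of 25 were at least 2-fold lower, with a median of -2.38, and in oviduct 8 were at least 2-fold higher and 0 lower, with a median of 0.65. The lambda light chain was read by 1 set of 9 genes, at 5.55 on the array labelled Gemc1-null trachea and 9.30 on WT trachea. It had 6.77 on the array labelled Gemc1-null oviduct and 6.10 on WT oviduct, so it differed by -3.74 in trachea and 0.67 in oviduct. A kappa set of 14 genes, with the joining and constant segments, had 6.14 and 8.97 in trachea and 7.51 and 6.58 in oviduct, the array labelled Gemc1-null first in each pair.

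The B cell list was lower with the segments in trachea. Of 19 measured B cell genes, 18 were at least 2-fold lower on the array labelled Gemc1-null trachea, with a median of -3.27, and their mean linear signal was 92.1 against 712 on WT trachea. Cd79b, a signalling chain of the B cell receptor, had 6.55 against 10.90 on WT trachea, 20.5-fold lower. Ms4a1, which encodes CD20, had 4.49, below background, against 9.07. All 19 stood above background on WT trachea and 13 on the array labelled Gemc1-null.

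B cell genes were not lower alone. In trachea the T cell list had 8 of 9 genes at least 2-fold lower, with a median of -3.15, and all 4 pan-leukocyte genes were, with a median of -2.38. The thymocyte list had 3 of 5 genes at least 2-fold lower, and 2 with background as the floor. Of its other genes, Ptcra differed by -0.06. Arpp21, below background on WT trachea, was at least 1.38-fold higher on the array labelled Gemc1-null. The macrophage and dendritic cell list had 2 of 7 at least 2-fold lower. Among 7 genes of lymphoid stroma and tissue, 4 were at least 2-fold lower, with Cxcl13, a B cell attractant of lymphoid follicles, at 7.62 against 11.76 and Glycam1, a mucin of lymph node venules, at 5.84 against 10.79 on WT trachea. Genes of B cells, T cells and lymphoid stroma were thus lower together with the segments, and their part in the immunoglobulin values was not tested.

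In oviduct the B cell list differed less than the segments. Its median difference was 0.20, beside 0.65 over the members and 0.05 over all named genes, whose upper quartile was 0.18. Its mean linear signal was 107 on the array labelled Gemc1-null and 107 on WT oviduct. That mean includes Vpreb3, which was lower on the array labelled Gemc1-null as given below, and was not taken without it. Cd79b had 7.15 and 6.69, Ms4a1 lay below background on both arrays at 4.70 and 4.56, and Cd79a, the partner chain of Cd79b, had 6.70 and 6.37. The 2 genes past 2-fold pointed opposite ways: Blnk, an adaptor downstream of the B cell receptor, had 9.31 against 8.06, and Vpreb3, of the pre-B cell receptor complex, had 6.69 against 9.29 on WT oviduct. Neither the T cell list (0 of 9) nor the pan-leukocyte list (0 of 4) had a gene past 2-fold.

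Plasma cell genes differed less than B cell genes in trachea and hardly in oviduct. In trachea 7 of 18 were at least 2-fold lower, 5 with background as the floor, with a median of -0.62, and mean linear signals of 180 on the array labelled Gemc1-null and 317 on WT trachea. Pou2af1, a coactivator at octamer promoters, had 6.36 against 9.87, 11.4-fold lower, and Mzb1, a chaperone for immunoglobulin in the endoplasmic reticulum, had 6.65 against 8.30. Slamf7, also on the list, had 5.58, below background, against 8.30, at least 5.87-fold lower, and Irf4 had 6.28 against 8.01, 3.33-fold lower. Tnfrsf17, a survival receptor of plasma cells, had 5.99 and 5.89, and Prdm1, the regulator of plasma cell differentiation, had 6.52 and 5.87. Both of these WT trachea values lie below background.

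In oviduct Jchain was the only one of 18 plasma cell genes at least 2-fold higher, and the list median was 0.06. The mean linear signals were 299 on the array labelled Gemc1-null and 283 on WT oviduct. Here as in trachea, such a mean is weighted to the brightest genes of the list. Xbp1 and Derl3, given below, are bright in oviduct, and the mean was not taken without them. Mzb1 had 6.88 and 7.01 there, Pou2af1 6.44 and 6.24, and Tnfrsf17 6.21 and 6.21. Xbp1, the secretory regulator shared with other gland cells, had 10.80 and 10.12. Derl3, of the degradation pathway of the endoplasmic reticulum, had 9.29 and 9.99. Beside the higher immunoglobulin segments in oviduct, 1 of 18 plasma cell genes (Jchain, itself a member) and 1 of 19 B cell genes (Blnk) were thus at least 2-fold higher on these arrays. Below that size, Xbp1 differed by 0.67 and the IgM receptor gene Fcmr by 0.61.

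**Figure D5:**
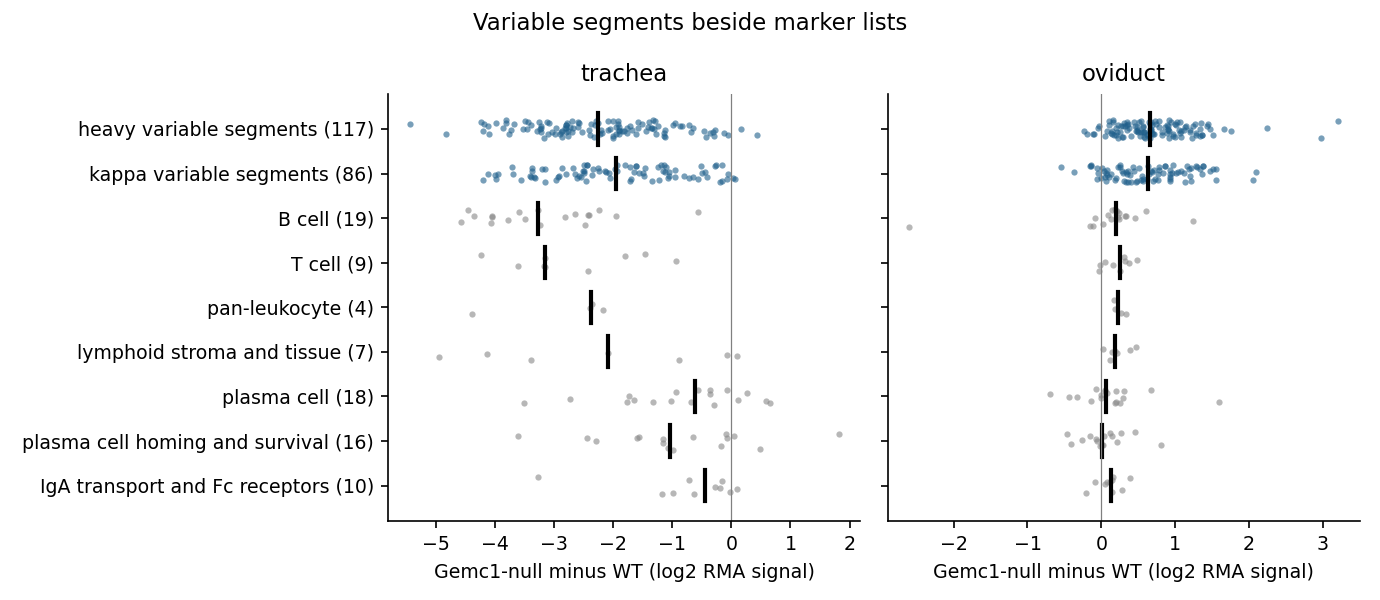
Differences between the array labelled Gemc1-null and the WT array, in log2 RMA signal, in trachea (left) and oviduct (right), for variable segments and 7 marker lists, 1 point per gene and a black bar at the median, with the number of genes in parentheses. In trachea the B cell list has a median of -3.27 beside -2.26 for heavy segments, and in oviduct 0.20 beside 0.66.

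Genes that carry or retain antibody in mucosa were measured beside the segments. Pigr, the receptor that moves polymeric IgA and IgM into secretions, had 5.78 on the array labelled Gemc1-null trachea and 9.05 on WT trachea, 9.69-fold lower. In oviduct it had 6.65 and 6.27, within 2-fold. In the list of IgA transport and Fc receptors the trachea difference was at least 2-fold downward for 2 of 10 genes and 0 of 10 differed by 2-fold in oviduct.

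The homing and survival list had 8 of 16 genes at least 2-fold lower in trachea, and 7 with background as the floor. Il5, a cytokine that favours IgA, had 6.62 on the array labelled Gemc1-null trachea and 4.80, below background, on WT trachea, which gives at least 1.55-fold higher. Ccl28, the epithelial chemokine that draws IgA plasma cells, had 6.22 on the array labelled Gemc1-null trachea and 7.38 on WT trachea, and 7.97 and 8.04 on the arrays labelled Gemc1-null oviduct and WT oviduct. Its receptor gene Ccr10 had 6.58 and 6.65 in trachea and 6.74 and 6.71 in oviduct. None of the 16 differed by 2-fold in oviduct (0 of 16).

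Genes of recombination were mostly dim, and those of germinal centres and class switching were mostly above background. Rag2, of the recombinase, Dntt, which adds bases at the joins, and Igll1, of the surrogate light chain, lay below background on all 4 arrays. In trachea 1 of 6 genes of the progenitor list was at least 2-fold lower, the cytokine receptor gene Il7r at 5.47 against 10.01 on WT trachea, a gene that T cells also express. The list of germinal centre and class switching genes had 6 of 8 above background on each trachea array. None of the 8 was past 2-fold in trachea (0 of 8), and in oviduct 1, the proliferation gene Mki67, which was lower.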

How the data were processed

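The authors deposited 1 log2 value per probe set and array, made with RMA per the submitters' processing notes. Log2 was applied a second time in the deposited table: raising 2 to each value gives 6 significant digits in 100% of cells (0.044% as deposited, tolerance 1e-09), and that number was used as log2 RMA signal. Of 65956 transcript clusters, 31258 were named by 1 gene, 1492 list several and 33206 are not listed. Symbols were updated through a RefSeq table (GRCm38.p6), by synonym or identifier for 5 members. Per gene the probe set with the highest mean was used.

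Groups follow the labels' tissue and genotype. Within tissues there is 1 array per group, so genes were counted at 2-fold with no test. The shared fit used limma 3.58.1 in R 4.3.3 with Benjamini-Hochberg adjustment at 0.05 over 30701 genes. It was run on simulated data with changes shared by both tissues and no tissue difference. That check asked only whether the estimates had the right size, and does not cover differences of opposite sign. Named genes are Ighm and Jchain, and per locus the 5 segments with the highest mean and the 3 with the widest difference per tissue. The 3 segments per locus with the smallest p were added. From the lists, some of the widest differences and others needed are described, and not every gene with a wide difference. Some others, such as Igkj3 and the diversity segments, were named after their values were seen. Members and lists were chosen with earlier results of these data known. Thresholds, level filters, probe set rule, centring, background floor and fit settings were varied.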

Additional observations from a re-analysis of the deposited data

Results flagged for a closer look

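In 14 of the 29 named members the arrays of trachea and oviduct pointed opposite ways past 2-fold by the levels as measured, and 7 did with background as the floor. The medians of heavy and of kappa variable segments also had opposite signs, past 2-fold in trachea and within 2-fold in oviduct. Each value below is the oviduct difference minus the trachea difference, each of them Gemc1-null minus WT by label, in log2 RMA signal. With 1 array per group the difference between tissues was not tested.

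The median of this value over segments was 3.06 for heavy variable segments (median differences of 0.66 in oviduct and -2.26 in trachea) and 2.87 for kappa variable segments (0.63 and -1.95). Among heavy segments it was 7.80 for Ighv3-6, 7.10 for Ighv1-82, 5.10 for Ighv5-16, 4.72 for Ighv1-2 and 4.46 for Ighv7-3. Among kappa segments it was 5.68 for Igkv1-135, 5.24 for Igkv6-25, 5.16 for Igkv1-133, 4.89 for Igkv2-137, 4.71 for Igkv10-95, 4.48 for Igkv17-121, 4.38 for Igkv5-48 and 3.31 for Igkv2-109. For Jchain it was 3.35. Many of these members were picked for a wide difference in 1 of the tissues, and those with an array below background have a floor rather than a measured fold. With that floor the difference in at least 1 of the tissues stayed within 2-fold for Ighv1-82, Igkv1-133, Igkv1-135, Igkv5-48, Igkv6-25, Igkv17-121 and Jchain.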

How the results depend on the processing

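Under every setting tried, 0 members passed the fold threshold in the opposite direction, and no result reversed. The trachea count of 170 lower members lay between 134 and 185 except with only genes whose mean level passes the mean array median, where it was 103 of 115, fewer genes being counted. The same filter gave 102 of 115 for the 159 members higher on WT trachea than on WT oviduct. The oviduct count of 54 depended most on the processing: 113 at 1.5-fold, 8 at 3-fold and 35 with background as the floor, and 42 to 54 otherwise. Centring on negative controls moved the median of all genes in trachea to 0.31, from 0.06, and the members' count to 155. The limma fit gave 0 adjusted calls under every setting, and 1 member had an unadjusted p under 0.05 without the tissue block. Apart from the tissue block of the limma fit, no pairing was possible because each group has 1 array. Leaving out an array ends each comparison that uses it, leaves the others as they are, and leaves the fit with the tissue block no residual degree of freedom. The fit without the block was not repeated on fewer arrays. Signal near background limits 116 of the 170 trachea differences and 25 of the 54 in oviduct.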
